A study of Mus musculus with 24 samples.

Results

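The genes described are 10 of the Fgf system of the limb bud, chosen by name: the ligands Fgf4, Fgf8, Fgf9, Fgf10, Fgf15, Fgf17 and Fgf18, and the receptors Fgfr1, Fgfr2 and Fgfr3. All 10 of the 10 genes named were found among the 19937 mouse genes measured, and each of them had 1 probe set, so no choice between probe sets was needed. Total RNA came from the left and right hindlimb buds of single embryos at E10.5, with 1 Affymetrix Mouse Gene 1.0 ST array for each of 12 wild type and 12 Nipbl+/- embryos, the mutants being of the RRS strain. The paper describes the embryos as littermates matched for stage, and the sample labels do not name litters. Nipbl+/- embryos carry 1 working copy of Nipbl, which encodes a factor that loads cohesin onto chromosomes, in all of their tissues. The design asks whether losing a copy changes the level of these signals and how far they vary from embryo to embryo. Values are log2 intensities, so a difference of 1 is a doubling, and levels of different probe sets are not compared with each other.

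Fgf proteins are secreted signals that bind receptor tyrosine kinases on nearby cells, with heparan sulphate as a cofactor, and switch on the MAP kinase pathway. In a limb bud, Fgf10 from the mesenchyme acts on the overlying ectoderm through the epithelial form of Fgfr2. The ridge of ectoderm at the rim of the bud answers with Fgf8, Fgf4, Fgf9 and Fgf17, which act back on the mesenchyme and sustain its outgrowth. RNA of whole buds pools all of these cells, so fewer cells of a type and less RNA per cell cannot be told apart.

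Nipbl, the targeted gene, matched the labels, since its mean log2 intensity fell from 10.52 ± 0.12 in wild type to 9.86 ± 0.12 in Nipbl+/- embryos (SD, n = 12 each), a ratio of 0.630. The hindlimb markers Tbx4 and Pitx1 had mean log2 intensities of 11.71 and 11.54 in wild type and of 11.70 and 11.47 in Nipbl+/- embryos. Array medians ran from 7.24 to 7.39. The interquartile range of an array, a measure of how far its values spread over probe sets, was narrowest in wild type replicate 3 (3.34), Nipbl+/- replicate 2 (3.40) and Nipbl+/- replicate 9 (3.44), against 3.51 to 3.84 in the other arrays. By Xist and Y-linked genes, 8 wild type and 3 Nipbl+/- embryos were female.

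Fgf10 and Fgf18 are the members whose levels ran opposite across embryos most tightly, as described further on, and their promoters are shown for that reason. Sequences are from RefSeq (GRCm38.p6) and hold 250 bases before and 50 after the start of the gene; 6 of the 10 members had an entry. Capitals mark matches to the GC box, GGGCGG, on either strand. The TATA box (TATAAA), the CCAAT box and the E-box (CACGTG) were searched on both strands as well.
Fgf10, chr13:118714449-118714748, + strand: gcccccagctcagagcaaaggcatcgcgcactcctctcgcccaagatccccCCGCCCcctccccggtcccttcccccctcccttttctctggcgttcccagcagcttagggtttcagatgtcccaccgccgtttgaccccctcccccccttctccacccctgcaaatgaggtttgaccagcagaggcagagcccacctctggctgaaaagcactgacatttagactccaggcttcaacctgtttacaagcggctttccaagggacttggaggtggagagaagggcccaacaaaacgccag
Fgf18, chr11:33147351-33147650, - strand: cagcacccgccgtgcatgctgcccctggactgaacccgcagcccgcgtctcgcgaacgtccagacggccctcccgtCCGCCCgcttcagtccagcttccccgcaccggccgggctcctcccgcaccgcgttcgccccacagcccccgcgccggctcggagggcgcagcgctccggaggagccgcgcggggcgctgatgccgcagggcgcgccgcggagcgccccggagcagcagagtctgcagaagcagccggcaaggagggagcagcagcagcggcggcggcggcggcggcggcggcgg
Each promoter held 1 GC box, and 35.7% of the 32851 promoters of this length held at least 1. Neither contained a TATA box, a CCAAT box or an E-box as spelled above, so no matches overlapped; these were present in 13.6%, 37.4% and 7.2% of promoters. The Fgf18 promoter was rich in G and C, at 78.7% of its bases with 47 CpG sites, and the Fgf10 promoter was at 60.7% with 10 CpG sites. The median promoter was at 52.7% with 7 CpG sites.

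No Fgf ligand or receptor passed the limma test for a difference in level between the genotypes. The paper, with another test on the same arrays, lists Fgf18, Fgf9 and Fgf15 as lower in mutants. Of these, Fgf18 had the lowest false discovery rate there. The paper's rate for Fgf18 was under the 0.05 used for calls here, and its rates for Fgf9 and Fgf15 were above it. Over all genes, 0.286% were called higher and 0.527% lower in Nipbl+/- embryos (limma, adjusted p under 0.05 after Benjamini-Hochberg adjustment over 19937 genes), and the members' counts were 0 and 0 of 10. At an unadjusted p under 0.05, 3 of the 10 were lower, namely Fgf18, Fgf9 and Fgf15, and 0 were higher, where 5.14% of all genes were lower and 4.13% higher. The difference was below 0 for 8 of the 10, against 53.5% of all genes, and its median was -0.07 over the members and -0.0049 over all genes.

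**Figure D1:**
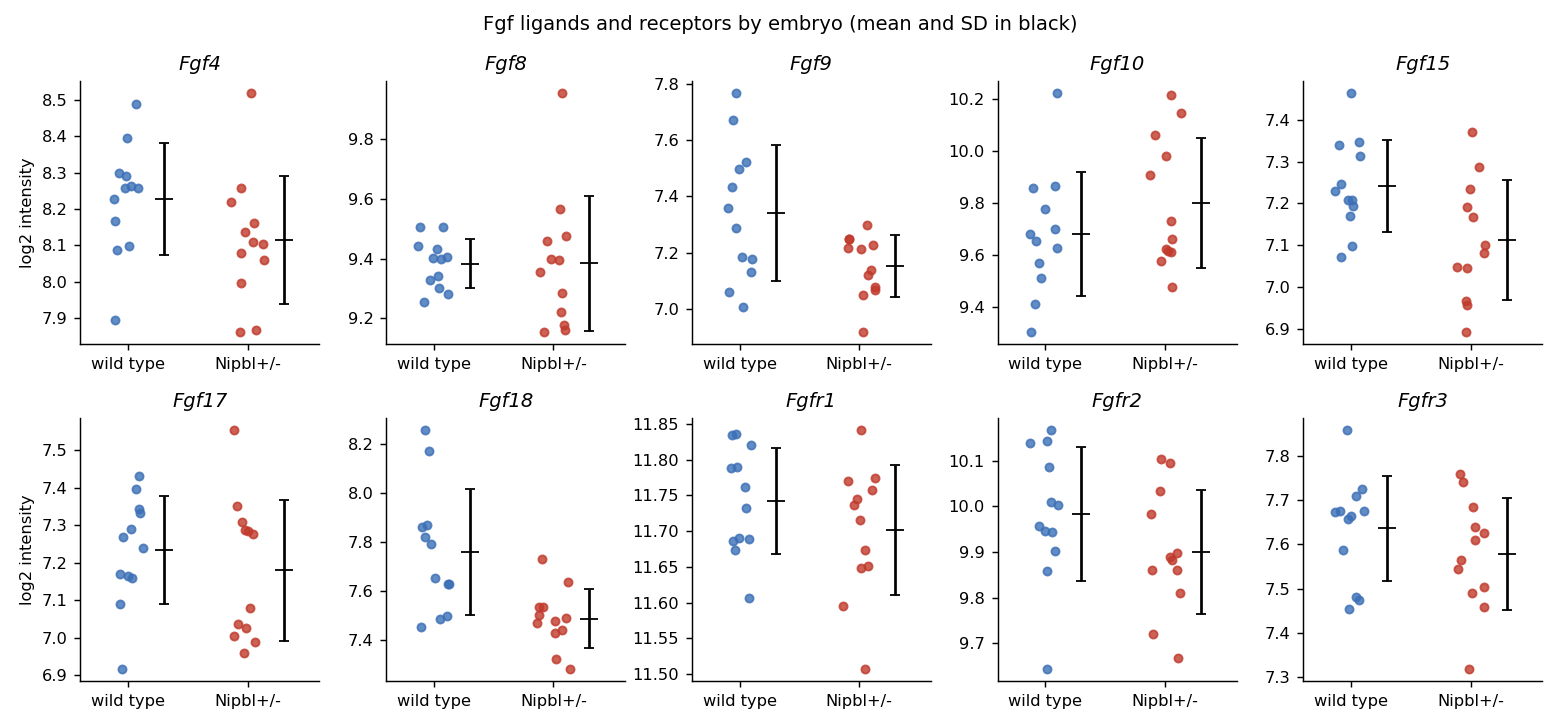
Log2 intensity of each of the 10 genes in the embryos, 12 of wild type in blue and 12 of Nipbl+/- in red, where black bars give each genotype's mean and SD; every panel has its own vertical axis. For Fgf8 the Nipbl+/- embryos reach both above and below the wild type range, and for Fgf9 and Fgf18 the wild type embryos reach further up than the mutants.

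Of the ridge ligands, Fgf8 is the most widely expressed along the ridge and the main driver of outgrowth. Wild type embryos had log2 intensities of 9.25 to 9.51 (median 9.40), and Nipbl+/- embryos had 9.15 to 9.96 (median 9.37). The wild type embryos lay close together and inside the mutant range, and Nipbl+/- replicate 2 stood above all others, the next mutant being at 9.57. The mean difference was 0.0005 (standard error 0.066, 95% interval -0.13 to 0.14, adjusted p = 0.999 from limma), with 6 of 12 mutants below the wild type mean. Its sign was not fixed, since it was -0.05 without Nipbl+/- replicate 2.

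Fgf4, which joins Fgf8 in the posterior ridge, had wild type values of 7.90 to 8.49 (median 8.26) and mutant values of 7.86 to 8.52 (median 8.11). The ranges overlapped nearly in full. Its mean difference was -0.11 (standard error 0.064, 95% interval -0.24 to 0.02, adjusted p = 0.647 from limma), with 10 of 12 mutants below the wild type mean. Fgf17, a ridge ligand of the same subfamily as Fgf8, had wild type values of 6.92 to 7.43 (median 7.25) and mutant values of 6.96 to 7.55 (median 7.18). The highest mutant was again replicate 2, and 6 of 12 mutants lay below the wild type mean. The mean difference of Fgf17 was -0.05 (95% interval -0.19 to 0.08, adjusted p = 0.908 from limma).

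Fgf9, made in the ridge and known for its part in lung and gonad development, had wild type values of 7.01 to 7.77 (median 7.32) and mutant values of 6.92 to 7.30 (median 7.18). All 12 mutants lay below the wild type mean, but inside or just under the lower part of the wild type range. The difference was -0.19 (standard error 0.072, 95% interval -0.34 to -0.04), a ratio of 0.877. It did not pass the test over all genes (unadjusted p = 0.0140, adjusted p = 0.321 from limma, 0.170 to 0.457 over the alternatives with all replicates).

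Fgf10, the ligand of the mesenchyme that starts a limb bud, had wild type values of 9.30 to 10.22 (median 9.67) and mutant values of 9.48 to 10.22 (median 9.70). The genotypes spanned nearly the same range, with 6 of 12 mutants above the wild type mean. The mean difference was 0.12 (standard error 0.092, 95% interval -0.07 to 0.31, adjusted p = 0.788 from limma), a ratio of 1.09. This interval was the widest of the 10 and leaves room for a rise or a small fall.

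Fgf18, a ligand of the same subfamily as Fgf8 that is known for its role in bone and cartilage growth, had the difference farthest from 0. It had wild type values of 7.45 to 8.26 (median 7.72) and mutant values of 7.28 to 7.73 (median 7.49). All 12 mutants were below the wild type mean, and wild type replicates 6 and 5, at 8.26 and 8.17, stood above the rest of their genotype. The difference was -0.27 (standard error 0.077, 95% interval -0.43 to -0.11), a ratio of 0.828, with an unadjusted p of 0.00146 and an adjusted p of 0.108 from limma. Its adjusted p was 0.0232 with the interquartile range of each array as a covariate and 0.0498 with array weights, and lay between 0.0751 and 0.187 under the other alternatives with all replicates or without the 3 narrowest arrays.

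Fgf15, the mouse counterpart of human FGF19 and in adults a hormone of bile acid control, had wild type values of 7.07 to 7.46 (median 7.22) and mutant values of 6.89 to 7.37 (median 7.09). In 10 of 12 mutants it lay below the wild type mean. The difference was -0.13 (standard error 0.052, 95% interval -0.23 to -0.02, unadjusted p = 0.0190, adjusted p = 0.365 from limma). With embryo sex as a covariate the unadjusted p was 0.0774.

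None of the 3 receptors was called. Fgfr1, the main receptor of the limb mesenchyme, had means of 11.74 ± 0.07 and 11.70 ± 0.09 in wild type and Nipbl+/- embryos (SD, n = 12 each), a difference of -0.04 with a 95% interval of -0.12 to 0.04. Fgfr2, which receives Fgf10 in the ectoderm, had means of 9.98 ± 0.15 and 9.90 ± 0.14, a difference of -0.08 with an interval of -0.20 to 0.03. Fgfr3, known as a brake on cartilage growth, had means of 7.64 ± 0.12 and 7.58 ± 0.13, a difference of -0.06 with an interval of -0.16 to 0.04. The adjusted p from limma was 0.847, 0.731 and 0.825 in turn. Mutants below the wild type mean numbered 7, 9 and 8 of 12. Probe sets of this array summarise whole genes, so the epithelial and mesenchymal forms of Fgfr2 were not separated.

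**Figure D2:**
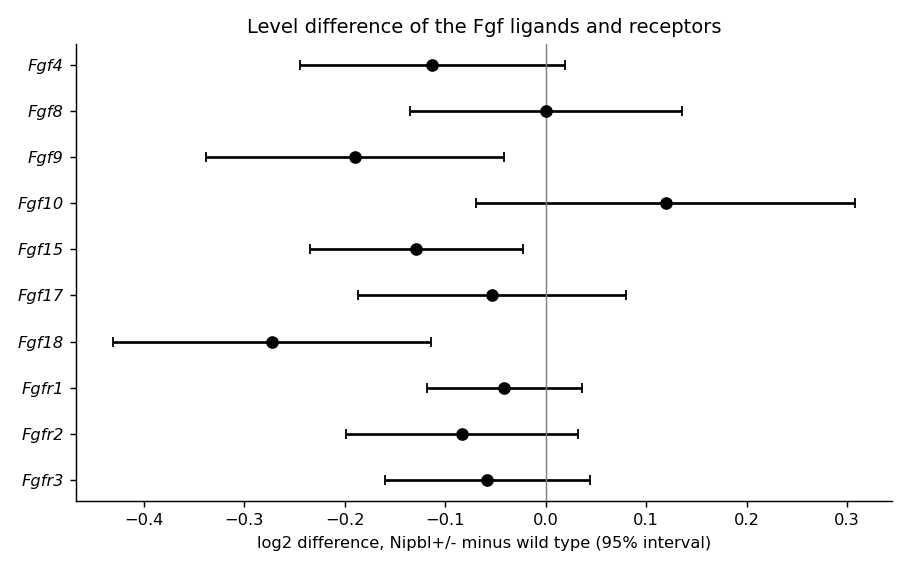
Mean log2 difference of each gene, Nipbl+/- minus wild type (points), with its 95% interval from limma (bars); 12 embryos per genotype. The intervals of Fgf9, Fgf15 and Fgf18 lie below 0 and the other 7 include it, before any adjustment for the number of genes.

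The SD between embryos was higher in mutants for Fgf8 and lower for Fgf9 and Fgf18, though no member passed the test of spread over all genes. The SD of Fgf8 was 0.083 in wild type and 0.226 in Nipbl+/- embryos, a ratio of 2.73, which lay at the 99.6 percentile of the same ratio over all genes. A two-sided permutation test of the deviations from the genotype median gave p = 0.0301. The SDs of Fgf8 were already known from earlier work on these data, so this p is not independent evidence. For Fgf9 and Fgf18 the mutants were the closer group, with SDs of 0.242 and 0.110 for Fgf9 (ratio 0.456, percentile 0.898, permutation p = 0.0109) and of 0.258 and 0.121 for Fgf18 (ratio 0.472, percentile 1.14, permutation p = 0.0227). None of these passed the same test over all genes: limma on the deviations gave an adjusted p of 0.995 for each of the 3, and 0% of genes were called wider and 0% narrower. The check on simulated data did not require this limma fit to call changed genes, so its lack of calls does not show equal spreads. At an unadjusted p under 0.05 in that fit, 2.44% of genes were wider and 1.72% narrower in mutants, where the members' counts were 1 and 2 of 10. An F test of the variances, chosen after seeing the data, gave adjusted p = 0.379 for Fgf8, 0.542 for Fgf9 and 0.571 for Fgf18, with 0 genes wider and 1 narrower.

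For Fgf10, the mesenchymal partner of Fgf8, no difference in spread was detected. Its SD was 0.239 in wild type and 0.25 in mutants, a ratio of 1.05 with a permutation p of 0.574, and the ratio lay between 0.935 and 1.43 without each embryo in turn. The remaining ratios were 0.923 for Fgfr2, 1.06 for Fgfr3, 1.15 for Fgf4, 1.23 for Fgfr1, 1.30 for Fgf15 and 1.31 for Fgf17, so 7 of the 10 genes had the higher SD in mutants, against 57.3% of all genes. With array medians set to 0 the ratio of Fgfr1 was 2.20 (permutation p = 0.00388). The median ratio was 1.11 over the members and 1.07 over all genes.

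**Figure D3:**
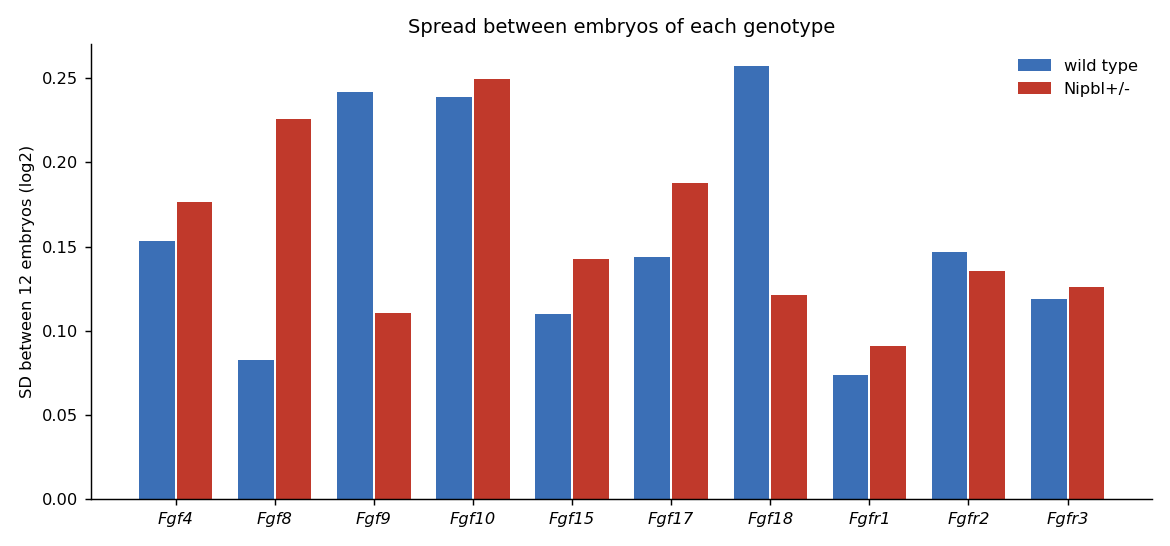
SD of the log2 intensity between the 12 embryos of each genotype (wild type blue, Nipbl+/- red) for each gene. The Fgf8 bar is higher in Nipbl+/- (0.226 against 0.083), and the Fgf9 and Fgf18 bars are higher in wild type.

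A single embryo carried much of the Fgf8 spread. Without Nipbl+/- replicate 2, the embryo at 9.96, the SD ratio of Fgf8 was 1.72 and the permutation p 0.0591. This embryo's array was among the 3 of narrowest interquartile range, and without all 3 the ratio was 1.71 (permutation p = 0.0440, 21 embryos), where the F test gave p = 0.111 and adjusted p = 0.721. The ratio was 2.21 with the interquartile range as a covariate (p = 0.0401) and 3.39 with array medians set to 0 (p = 0.00104, permutation tests). Leaving out Nipbl+/- replicate 3, 4, 5, 7 or 8 moved the ratio little, to between 2.71 and 2.78, with permutation p from 0.0506 to 0.0717. The narrower spread of Fgf9 in mutants had p = 0.0866 with the interquartile range as a covariate and 0.124 with array medians set to 0, while its permutation p stayed under 0.05 without each of the 24 embryos in turn. That of Fgf18 had p = 0.0710 with the interquartile range and 0.0689 with embryo sex as a covariate, and its permutation p was under 0.05 in 16 of 24 such omissions (0.00656 to 0.103).

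The same embryos stood at the ends of several genes. Nipbl+/- replicate 2 was the highest mutant for 5 members, Fgf4, Fgf8, Fgf9, Fgf17 and Fgf18, and the lowest for Fgf10. Wild type replicate 11 was the lowest of its genotype for 4 members, Fgf8, Fgf9, Fgf15 and Fgf17. Wild type replicate 12 was the lowest for the 3 receptors and the highest for Fgf10, at 10.22.

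Levels of some members moved together or apart from embryo to embryo once the genotype means were removed. Of 45 pairs of members, 3 were called (two-sided permutation test of Pearson's r, Benjamini-Hochberg adjustment over 45 pairs). The share called among pairs of other genes was not computed. Fgf10 and Fgf18 ran opposite, with r = -0.70 and Spearman's rho = -0.70 over 24 embryos (permutation p = 3e-05 and 0.00011, adjusted p = 0.00135 and 0.00495). The relation had r = -0.81 in wild type and -0.64 in Nipbl+/- embryos, and r = -0.74 without the 2 embryos farthest from the median of Fgf10. It lay between -0.67 and -0.73 with array medians set to 0, with a covariate for sex or for the interquartile range, or without the 3 narrowest arrays. Embryos with more of the mesenchymal ligand Fgf10 thus had less Fgf18 in each genotype.

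Fgf8 and Fgf17 rose and fell together, with r = 0.70 and rho = 0.70 (permutation p = 0.00038 and 0.00056, adjusted p = 0.00855 and 0.0126). In wild type r was 0.74 and in mutants 0.73. Without the 2 embryos farthest from the median of Fgf8, Nipbl+/- replicates 2 and 4, r was 0.52. It was 0.50 with the interquartile range as a covariate (adjusted p = 0.0929), 0.57 without the 3 narrowest arrays (adjusted p = 0.101) and 0.58 with array medians set to 0 (adjusted p = 0.0801), all by permutation. Fgf9 and Fgf10 ran opposite, with r = -0.58 and rho = -0.54 (permutation p = 0.00198 and 0.0058, adjusted p = 0.0297 and 0.0653), r = -0.72 in wild type, -0.41 in mutants and -0.58 without the 2 farthest embryos. Their adjusted p was 0.173 with array medians set to 0 and 0.0824 without the 3 narrowest arrays. Fgf8 and Fgf10, the ligands of the loop between ridge and mesenchyme, were not among the called pairs.

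**Figure D4:**
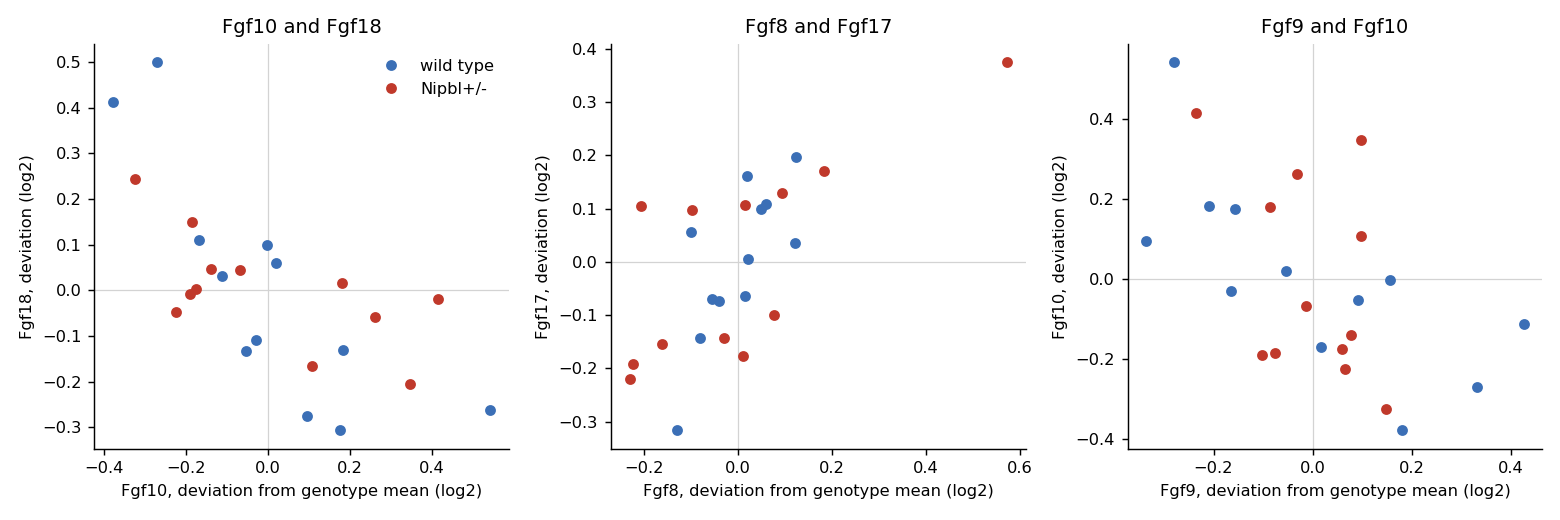
Deviation of log2 intensity from the genotype mean in each embryo for the 3 called pairs of genes (wild type blue, Nipbl+/- red, 12 embryos each). Fgf18 falls as Fgf10 rises, Fgf17 rises with Fgf8, with Nipbl+/- replicate 2 at the upper right, and Fgf10 falls as Fgf9 rises.

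4 of the 10 members also followed the interquartile range of their array, after genotype means were removed. The share of all genes that follow it was not computed, so the count is not read as a trait of these members. For Fgf17 Pearson's r was -0.72 and Spearman's rho -0.75 (permutation p = 3e-05 and 5e-05; adjusted p of r over 10 genes = 0.0003), with r = -0.64 without the 2 embryos farthest from the gene's median. For Fgf15 r was -0.72 and rho -0.67 (permutation p = 0.00019 and 0.00071, adjusted p = 0.00095), with r = -0.61 without the 2 farthest. The relation held the same sign in each genotype for these genes. For Fgf18 r was -0.58 and rho -0.67 (permutation p = 0.00218 and 0.00057, adjusted p = 0.00545), with r = -0.68 without the 2 farthest. For Fgf8 r was -0.58 and rho -0.60 (permutation p = 0.00216 and 0.00241, adjusted p = 0.00545), with r = -0.42 without the 2 farthest. These ligands were thus higher on arrays whose values spread less, and the part of the array range in the pairs and spreads above was not tested beyond the values given with it as a covariate.

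**Figure D5:**
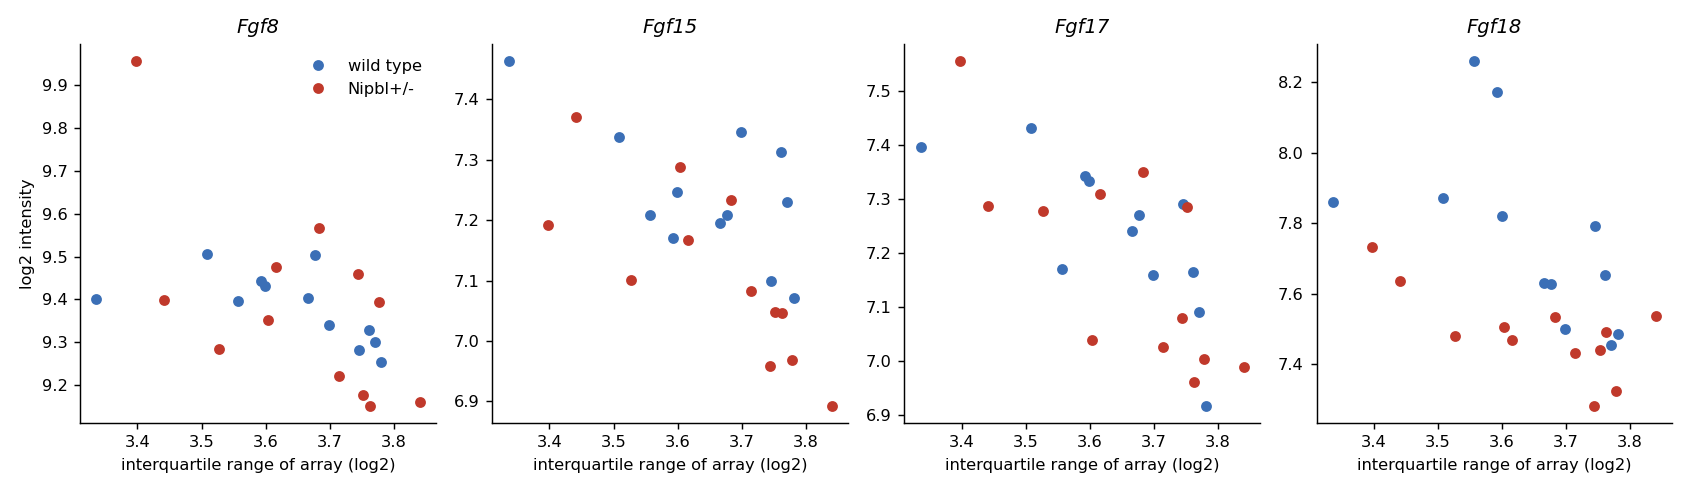
Log2 intensity of Fgf8, Fgf15, Fgf17 and Fgf18 in each embryo against the interquartile range of its array over probe sets (log2), wild type blue and Nipbl+/- red. In all 4 panels the intensity falls as the range widens, and the Nipbl+/- embryo at 9.96 for Fgf8 has an array range of 3.40.

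Levels of the members were set beside the mean log2 intensity of marker lists of 10 cell types that buds or neighbouring tissue could hold, over the 24 embryos and with genotype means removed. Of 100 such relations 18 were called (two-sided permutation test, adjusted over 100). How often other genes would be called with these lists was not computed, so the count is not read as particular to the members. Fgf18, known in the tail bud and presomitic mesoderm, followed the 8 measured markers of those tissues with r = 0.72 and rho = 0.71 (permutation p = 1e-05 and 0.00021, the former the smallest these permutations can give; adjusted p = 0.001 and 0.007), with r = 0.79 in wild type, 0.78 in mutants and 0.68 without the 2 farthest embryos. Fgf8, also made in the tail bud, followed the same list with r = 0.68 and rho = 0.55 (permutation p = 0.00054 and 0.00598, adjusted p = 0.00771 and 0.046), and r = 0.52 without the 2 farthest embryos. With the interquartile range of the array as a covariate r was 0.51 for Fgf18 and 0.43 for Fgf8, and without the 3 narrowest arrays it was 0.69 and 0.50. The mean of this list had a wild type range of 6.92 to 7.22 and a mutant range of 6.90 to 7.26, and 0 of its 8 genes were called between genotypes, with 2 lower at an unadjusted p under 0.05. The part of tail tissue in the values of Fgf18 was not tested.

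Fgf17 followed the 9 measured neural tube markers, with r = 0.74 and rho = 0.73 (permutation p = 6e-05 and 0.00015, adjusted p = 0.003 and 0.007), and r = 0.67 without the 2 farthest embryos. Fgf15, which is made in the neural tube, followed them with r = 0.70 and rho = 0.64 (permutation p = 0.00027 and 0.00138, adjusted p = 0.00675 and 0.0197), and r = 0.61 without the 2 farthest. With the array range as a covariate r was 0.22 for Fgf17 and 0.04 for Fgf15, and without the 3 narrowest arrays it was 0.62 and 0.57. The list's mean lay within 6.61 to 7.08 in wild type and 6.55 to 7.07 in mutants, with 0 genes called and 0 at an unadjusted p under 0.05. Fgf18 and Fgf8 were called with the neural tube list too (r = 0.63 and 0.61, adjusted p = 0.00771 and 0.0106 by permutation). Fgf17 was also called with the tail bud list (r = 0.67, adjusted p = 0.00775 by permutation). In turn, r was 0.30, 0.24 and 0.18 with the array range as a covariate, and 0.59, 0.51 and 0.48 without the 3 narrowest arrays.

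Fgf10 ran opposite to the 6 muscle precursor markers (r = -0.69, rho = -0.57, permutation p = 0.00036 and 0.00579, adjusted p = 0.0072 and 0.046; r = -0.49 without the 2 farthest embryos). It also ran opposite to the 5 measured markers of Schwann cells and nerve (r = -0.65, rho = -0.73, permutation p = 0.00086 and 8e-05, adjusted p = 0.0089 and 0.007; r = -0.71 without the 2 farthest). With the array range as a covariate these were -0.66 and -0.60, and without the 3 narrowest arrays -0.71 and -0.65. Fgf9 rose with the muscle precursor markers (r = 0.57, rho = 0.51, permutation p = 0.00165 and 0.00873, adjusted p = 0.0127 and 0.0546; r = 0.52 without the 2 farthest), and so did Fgf18 (r = 0.58, rho = 0.60, permutation p = 0.00136 and 0.00165, adjusted p = 0.0113 and 0.0206; r = 0.52 without the 2 farthest). Muscle precursors migrate into the bud from the somites, and none of their 6 markers was called between genotypes, with 1 higher at an unadjusted p under 0.05. The 8 other called relations joined Fgf8, Fgf15, Fgf17 or Fgf18 to tail bud, neural tube, endothelial, nerve or mesenchyme markers. They include those of Fgf18, Fgf8 and Fgf17 named just above. Their r lay between -0.68 and 0.67, between -0.15 and 0.44 with the array range as a covariate, and between -0.53 and 0.59 without the 3 narrowest arrays.

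Among the receptors, Fgfr2 followed the 13 limb mesenchyme markers (r = 0.65, rho = 0.68, permutation p = 0.00089 and 0.00061, adjusted p = 0.0089 and 0.0142; r = 0.67 without the 2 farthest embryos) and the 11 surface ectoderm markers (r = 0.60, rho = 0.59, permutation p = 0.00217 and 0.00321, adjusted p = 0.0155 and 0.0313; r = 0.67 without the 2 farthest). Without the 3 narrowest arrays r was 0.62 and 0.39. Fgf8 was not called with the 10 markers of the apical ridge (r = 0.30, rho = 0.22, permutation p = 0.184 and 0.313, adjusted p = 0.367 and 0.557), with r = -0.17 in wild type, 0.50 in mutants, 0.08 without the 2 farthest embryos, 0.54 with the array range as a covariate and 0.15 without the 3 narrowest arrays. Nor was Fgf17 called with the ridge markers (r = -0.15, rho = -0.19, permutation p = 0.486 and 0.369, adjusted p = 0.685 and 0.596). None of those markers was called between genotypes, with 1 at an unadjusted p under 0.05; this was Sp8, a transcription factor that keeps the ridge, with a difference of 0.12 (adjusted p = 0.487 from limma). Across the marker lists 3 genes were called in all, where 0.286% of all genes were called higher and 0.527% lower. Krt5, a keratin of basal ectoderm, was lower (-0.31, standard error 0.053, adjusted p = 0.00171). The 11 surface ectoderm markers did not fall as a list, since their median difference was 0.02. Before adjustment, limma's p was under 0.05 for 1 lower marker of that list, Krt5, and for 1 higher, Epcam (0.15). Lhx9, a mesenchymal transcription factor of the limb bud, was higher (0.16, standard error 0.031, adjusted p = 0.00698). Of the 13 limb mesenchyme markers, 4 were higher and 0 lower at an unadjusted limma p under 0.05, with a median difference of 0.02. Over all genes these shares were 4.13% and 5.14%. Erbb3, a neuregulin receptor of Schwann cell precursors, was higher as well (0.25, standard error 0.062, adjusted p = 0.0499 from limma). Erbb3 was called in 11 of the 35 fits run, alternatives and omitted embryos included. Of the 5 measured markers of Schwann cells and nerve, 1 (Erbb3) was higher and 0 lower at an unadjusted limma p under 0.05. The median difference of that list was 0.06.

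For Fgf8 and Fgf10 the genes whose levels ran closest to theirs over the 24 embryos, after genotype means were removed, are given as a description; the 24 arrays share their processing. For Fgf8 they were 4930596D02Rik (r = 0.85), Slc6a21 (0.85), Olfr974 (0.83), 3110070M22Rik (0.83) and Ereg, which encodes epiregulin (0.83). All 5 were dim, with mean log2 intensities from 5.39 to 7.26, and without the 3 narrowest arrays their r was 0.69 to 0.72. For Fgf10 they were Ybx3, an RNA and DNA binding protein (0.87), Utp4, of ribosome assembly (0.86), Ccdc86 (0.86), C1qbp, a mitochondrial protein (0.85), and P3h2, which modifies collagen (0.85). These had mean log2 intensities from 8.70 to 12.29 and kept r between 0.85 and 0.88 without the 3 narrowest arrays.

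The rest of the Fgf pathway was read from lists of named genes. Of 15 other Fgf ligands 0 were called, with a median difference of -0.01, against -0.0049 over all genes. Before adjustment, 2 were lower and 0 higher at a limma p under 0.05, against 5.14% and 4.13% of all genes. Those with the smallest p were Fgf2 (-0.10, adjusted p = 0.495) and Fgf5 (-0.11, adjusted p = 0.512) among the lower, and Fgf7 (0.08, adjusted p = 0.737) and Fgf13 (0.04, adjusted p = 0.896) among the higher (limma). In spread between embryos 0 of the 15 were called, and the ratio of the mutant to the wild type SD ran from 0.45 for Fgf2 to 2.71 for Fgf16.

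Of 9 other receptors and co-receptors 2 were lower and 0 higher, against 0.527% and 0.286% of all genes. Both encode Flrt membrane proteins, which bind Fgf receptors and also act in cell adhesion and guidance. Flrt2 went from 8.82 ± 0.16 to 8.49 ± 0.19 (SD, n = 12 each; difference -0.33 with a standard error of 0.069, limma's adjusted p = 0.00978) and was called in all 35 fits. Flrt3, which is made in the ridge, went from 9.88 ± 0.09 to 9.70 ± 0.11 (difference -0.17 with a standard error of 0.042, limma's adjusted p = 0.0446), but it was called in 16 of 35 fits, with an adjusted p up to 0.170.

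Of 13 genes listed as responding to Fgf signalling 0 were called, with a median difference of -0.01. Before adjustment, 3 were lower and 0 higher at a limma p under 0.05, against 5.14% and 4.13% of all genes. The bright target Dusp6, a phosphatase that dampens MAP kinase, had a difference of -0.04 (adjusted p = 0.859), and the transcription factors Etv4 and Etv5 had differences of -0.0003 and 0.01 (adjusted p = 0.9996 and 0.988, limma). The smallest p among the lower were those of Ets2 (-0.12, adjusted p = 0.154) and the feedback inhibitor Spry2 (-0.18, adjusted p = 0.182), and among the higher those of Spred2 (0.06, adjusted p = 0.758) and Il17rd (0.01, adjusted p = 0.984). With the array range as a covariate Ets2, Spry2 and Ets1 passed, at adjusted p = 0.0111, 0.0251 and 0.0331 from limma. The paper, with its own test, lists Ets1, Ets2 and Spry2 as lower and Spred2 as higher, each at a false discovery rate under 0.05. Its ratio for Spred2 is larger than the 1.04 found here, and the reason was not tested.

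Of 18 genes that act on or with the limb Fgf genes 2 were lower and 0 higher, against 0.527% and 0.286% of all genes. At an unadjusted p under 0.05 in limma, 4 were lower and 4 higher, against 5.14% and 4.13% of all genes. Bmp2, a signal of the ridge and posterior mesenchyme, had a difference of -0.34 (standard error 0.078, adjusted p = 0.0268), and Shh, the posterior signal that keeps Fgf4 on in the ridge, had a difference of -0.28 (standard error 0.066, adjusted p = 0.0326 from limma). They were called in 31 and 23 of 35 fits, with adjusted p up to 0.0947 and 0.0686. The smallest p among the higher were those of the Bmp receptor Bmpr1a (0.13, adjusted p = 0.138) and of Bmp7 (0.14, adjusted p = 0.263). Grem1, the Bmp antagonist that links Shh to the ridge Fgf genes, had a difference of -0.08 (adjusted p = 0.680 from limma).

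The genes beside the members on the chromosomes showed no call. With 2 measured neighbours on each side, 36 genes that are not members were tested, and 0 were higher and 0 lower (limma; before adjustment, 1 was higher at a p under 0.05). Fgf4 and Fgf15 lie next to each other on chromosome 7, with Fgf3 beyond Fgf4, and their differences were -0.11, -0.13 and 0.05; LTO1 and Ccnd1 on the far side were at 0.06 and -0.03. Beside Fgf8, the differences of Fbxw4, Dpcd, Oga and Kcnip2 were -0.05, 0.04, 0.02 and -0.02. Beside Fgf18, Npm1 and Tlx3 were at 0.05 and 0.02 and Smim23 and Fbxw11 at -0.03 and 0.0032, and beside Fgf9, Micu2, Zdhhc20, 1700129C05Rik and Gm5142 were at -0.05, 0.03, 0.01 and -0.0030. Beside Fgf10, Gm10732, Mrps30, Nnt and Paip1 were at 0.07, 0.0019, -0.02 and 0.05. The neighbour of smallest p was Xpo7, beside Fgf17 (0.07, unadjusted p = 0.0157, adjusted p = 0.340 from limma).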

How the data were processed

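Hindlimb buds of 12 wild type and 12 Nipbl+/- embryos were measured, 1 array per embryo, and their number limits the precision. The deposited values are log2 intensities that the authors made with GenePattern and, per the submitters' processing notes, RMA (version not given in the sources used here), which subtracts background, equalizes the arrays' distributions and gives a single value for each probe set. The deposited values still differed between arrays in median and interquartile range, as given above. Of 28159 probe sets, 21640 had 1 gene symbol; the brightest per gene gave 19937 genes. Levels were compared with limma 3.58.1 in R 4.3.3, as was the absolute deviation from the genotype median. Calls were made at an adjusted p under 0.05. Single genes and correlations were tested with 100000 permutations, run in Python 3.11.15. The fits were tested on simulated data with known changes. For the limma fit of spread this checked the estimate and false calls, and did not require that changed genes be called. Members and gene lists were chosen with earlier results of these data known. Named genes are all members, every called gene of the lists, the 2 of smallest p per direction in the pathway lists, the neighbours, and the 5 genes most like Fgf8 and Fgf10; other genes were named after their values were seen. Some genes of the marker lists are not reported here. Replicates are separate embryos. Alternatives covered the probe set used, dropping dim genes, how variance was modelled, array weights, replicate number, embryo sex, array medians, a t-test on linear values and leaving out each embryo; the array interquartile range, the 3 narrowest arrays and the F test were chosen after seeing the data.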

Additional observations from a re-analysis of the deposited data

How the results depend on the processing

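Members called lower were 0 under the main setting and 1 (Fgf18) with array weights and with the interquartile range as a covariate. Genes called higher were 57, and 101 with array weights, 35 with embryo sex, 37 with array medians set to 0 and 186 with the interquartile range; genes called lower were 105, and 180, 97, 67 and 303. Without each embryo in turn, genes higher ran from 36 to 72 and lower from 74 to 149, members called stayed at 0, and genes of wider spread ran from 0 to 1, the 1 without wild type replicate 12. The F test called 1 gene narrower with all arrays, without the 3 narrowest and with the interquartile range as a covariate. The level difference of Fgf8 was -0.032 with array weights, -0.012 with embryo sex and -0.057 without the 3 narrowest arrays, and -0.052 to 0.022 without each embryo. The SD ratio of Fgf8 ran from 1.72 to 2.99 without each embryo and that of Fgf10 from 0.935 to 1.43, with 0.960 without the 3 narrowest arrays. That of Fgf4 was 0.973 with array medians set to 0, 0.931 with the interquartile range and 0.780 without the 3 narrowest arrays, and 0.833 to 1.5 without each embryo; without each embryo Fgfr1, Fgfr2 and Fgfr3 ran over 0.958 to 1.44, 0.813 to 1.29 and 0.844 to 1.25, and Fgfr1 was 2.20 with array medians set to 0. Pairs called were 3, and 6 with the interquartile range (Fgf10 and Fgf18, Fgf9 and Fgf10, Fgf9 and Fgf18, Fgf15 and Fgfr1, Fgf18 and Fgfr1, Fgf10 and Fgfr2), 2 with array medians set to 0 (Fgf10 and Fgf18, Fgf15 and Fgfr1), 1 without the 3 narrowest arrays (Fgf10 and Fgf18) and 1 with the replicate block (Fgf15 and Fgf17, adjusted p = 0.0189 by permutation). Fgf15 and Fgfr1 had r = -0.64 with array medians set to 0 and -0.68 with the interquartile range. Fgf9 and Fgf10 had r = -0.45 with array medians set to 0 and -0.60 without the 3 narrowest arrays; Fgf8 and Fgf17 had 0.58, 0.57 and, with the interquartile range, 0.50. The cause was not tested in any of these.

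The labels do not say whether embryos of the same number share a litter. Same-numbered embryos correlated at -0.35 to 0.28 over genes (median -0.02, against 0.01 for other pairings), over 0.1 in 5 of 12 pairs. Of 24 embryos, 4 correlated best with their own number. These values do not settle whether the numbers pair embryos. With the replicate block, 48 genes were higher and 121 lower and 0 members were called, and over the 12 differences r was -0.71 for Fgf10 and Fgf18 (adjusted p = 0.0849), 0.76 for Fgf8 and Fgf17 (adjusted p = 0.0710) and -0.30 for Fgf9 and Fgf10 (adjusted p = 0.739, permutation tests). The SD of single genes could not be fitted with the block, since both embryos of a number then deviate equally. With 12 embryos per genotype, the limits of each level difference are its 95% interval.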
